A study of Mus musculus with 6 samples.

Results

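The 10 genes described here encode the platelet-derived growth factors (Pdgfa, Pdgfb, Pdgfc and Pdgfd) and their receptors (Pdgfra and Pdgfrb), stem cell factor (Kitl) and its receptor (Kit), and the macrophage growth factor (Csf1) and its receptor (Csf1r). They were taken by gene symbol, and every probe whose transcript identifier led to one of these symbols was kept. This gave 16 probes of 39429 probes on the array that were not controls, of which 27234 carried 1 gene symbol, and 10 of 20659 named genes. Pdgfa and Pdgfb had a pair of probes each, Csf1 and Csf1r had 3 each, and the other genes had 1.

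RNA came from CD63+ cells sorted from adult mouse liver and grown in culture, and each of 6 samples was labelled with Cy3 and hybridised to 1 Agilent whole-genome array. CD63 is a tetraspanin of late endosomes and the cell surface. In 3 samples the donor liver had been injured with DDC, which disturbs haem synthesis and damages bile ducts when fed to mice, and in 3 samples the liver was not injured. All were grown in medium with serum, HGF, EGF, insulin, transferrin, selenium, dexamethasone and nicotinamide. VEGF and bFGF were added to cultures named P6, P7 and P9, names that match no sample title. The file names of 2 no-injury arrays carry numbers of this kind, so this treatment and the absence of injury may not be separable. The labels speak of 6 cell lines and do not tie samples to separate animals, so p-values measure the spread between these samples, which may be technical.

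The PDGF receptors, KIT and the CSF1 receptor belong to class III of the receptor tyrosine kinases, in which a dimeric ligand joins a pair of receptors that then phosphorylate each other and recruit RAS, PI3K and SRC family signalling. In liver, PDGF receptors are best known from hepatic stellate cells and fibroblasts, KIT from mast cells and blood progenitors, and the CSF1 receptor from macrophages, while the ligands are made by many cell types, epithelial cells among them. PDGF-C and PDGF-D are secreted with an inhibitory CUB domain that a protease must remove, whereas PDGF-A and PDGF-B are cut by furin-type convertases.

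Values are the log2 processed signal of a probe minus the 75th percentile of its array, so that 0 is the level of a bright probe, and a difference of 1 is a doubling. Only values of the same probe can be set against each other, since probes differ in brightness. The 75th percentiles were 1441 to 2271 intensity units, 65.0% to 74.8% of spots were well above background, and no spot was saturated. The dimmest probes called well above background lay between -7.98 and -7.14. No-injury replicates 1 and 3 differed by no more than the noise between repeated spots (chi-square 145 on 136 degrees of freedom, p = 0.276 over 137 probes printed 10 times, compared spot by spot on 2 arrays) and were counted as 1 sample, which left 3 DDC injury and 2 no-injury samples. The no-injury arrays shared 1 scan and the DDC injury arrays lay in other scans, so scan and injury cannot be told apart. Cd63 itself stood at 3.65, 4.07 and 3.70 in DDC injury and at 3.94, 3.88 and 3.95 without injury, a difference of -0.11 ± 0.17 (SE, adjusted p = 0.677).

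The promoters of Pdgfd, Kitl, Pdgfra, Pdgfa and Csf1 are shown because their genes passed the test in this comparison. Each run is the 250 bases before the RefSeq start site on GRCm38.p6, written 5′ to 3′ along the gene, with motif matches on either strand in capitals.
Pdgfd, chr9:6168236-6168485, plus strand: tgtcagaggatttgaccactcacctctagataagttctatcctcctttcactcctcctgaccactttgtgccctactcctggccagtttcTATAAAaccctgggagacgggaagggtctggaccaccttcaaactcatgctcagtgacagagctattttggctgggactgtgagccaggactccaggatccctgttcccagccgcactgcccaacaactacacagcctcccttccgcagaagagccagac
Kitl, chr10:100015571-100015820, plus strand: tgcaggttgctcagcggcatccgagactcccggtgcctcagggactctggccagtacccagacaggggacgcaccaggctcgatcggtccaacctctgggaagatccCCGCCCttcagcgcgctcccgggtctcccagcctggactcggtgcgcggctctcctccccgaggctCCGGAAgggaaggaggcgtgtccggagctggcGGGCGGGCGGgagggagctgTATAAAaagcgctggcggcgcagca
Pdgfra, chr5:75152001-75152250, plus strand: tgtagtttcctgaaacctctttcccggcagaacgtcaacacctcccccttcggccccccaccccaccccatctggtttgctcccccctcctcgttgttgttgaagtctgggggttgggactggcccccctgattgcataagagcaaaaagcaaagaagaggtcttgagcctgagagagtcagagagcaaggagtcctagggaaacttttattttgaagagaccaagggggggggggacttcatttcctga
Pdgfa, chr5:138994945-138995194, minus strand: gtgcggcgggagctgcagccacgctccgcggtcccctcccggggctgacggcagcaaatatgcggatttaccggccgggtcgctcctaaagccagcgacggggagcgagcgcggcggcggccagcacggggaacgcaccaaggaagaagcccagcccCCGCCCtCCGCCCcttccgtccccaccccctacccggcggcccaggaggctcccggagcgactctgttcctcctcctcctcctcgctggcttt
Csf1, chr3:107760470-107760719, minus strand: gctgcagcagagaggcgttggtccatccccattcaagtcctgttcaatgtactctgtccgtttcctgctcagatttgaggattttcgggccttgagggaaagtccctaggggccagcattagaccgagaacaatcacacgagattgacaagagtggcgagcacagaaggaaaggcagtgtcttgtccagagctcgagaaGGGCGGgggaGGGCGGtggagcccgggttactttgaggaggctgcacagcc

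The motifs searched were the AP-1 site TGANTCA, the ETS site CCGGAA, the STAT site TTCNNNGAA, the GC box GGGCGG, the TATA box TATAAA, the E-box CACGTG and the cAMP element TGACGTCA. These were found in 6.75%, 12%, 7.02%, 32.7%, 12.4%, 6.02% and 1.55% of 32851 promoters of the same length. The Kitl run, in which a pair of GC boxes overlap, held 3 GC boxes, 1 ETS site and 1 TATA box. The Pdgfd run held 1 TATA box, the Pdgfa and Csf1 runs 2 GC boxes each, and the Pdgfra run none of the 7 motifs. Base composition also differed among them: the G and C content was 72.4% with 28 CpG in Pdgfa, 69.2% with 23 CpG in Kitl, 56.4% with 10 in Csf1, 54.4% with 4 in Pdgfra and 53.6% with 3 in Pdgfd, against a median of 52.4% and 6 CpG over all promoters. Pdgfc, Kit and a second Pdgfa start site were also matched, 7 of the 10 genes in all, and Pdgfb, Pdgfrb and Csf1r are not shown. A match is a description of the letters in this window and not a bound site.

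In the DDC injury cultures, Pdgfd fell to 3.42% and Kitl to 36.2% of their no-injury signal. The Pdgfd difference was -4.94 to -3.03 on the log2 scale, depending on the setting. Pdgfra rose by 1.06 to 2.75 on that scale, depending on the setting, from a no-injury level near the limit of the array. Of 2 Pdgfa probes 1 passed at a 2.07-fold higher signal, and the other was 2.08-fold higher without passing. Of 3 Csf1 probes 1 passed at 0.59 on the log2 scale, and the others were 0.47 and 0.53 higher without passing. The 5 calls were made at an adjusted p under 0.05 over all probes (limma). Of the 16 probes, all were tested, 3 were higher, 2 were lower and 11 did not pass. This is 5 of 16, beside 29.3% of the 27428 probes tested in the whole comparison (15.5% higher, 13.8% lower), so the share of changed probes was near the background. The groups did not overlap for 11 member probes, 7 with DDC injury above and 4 below, beside 64.0% of all probes tested (30.7% above, 33.3% below). The median difference was 0.31 over the 16 probes and -0.10 over all probes tested, and the latter moved to 0.00 with quantile scaling and to 0.08 with another background correction. Without no-injury replicate 2, which leaves 1 no-injury sample whose spread is assumed to equal that of the DDC injury samples, no member probe was called higher and 1 lower by limma, with 2 higher and 2 lower at an unadjusted p under 0.05. Without DDC injury replicate 3, 1 was higher and 2 were lower, and without DDC injury replicate 1, 3 were higher and 4 lower.

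**Figure D1:**
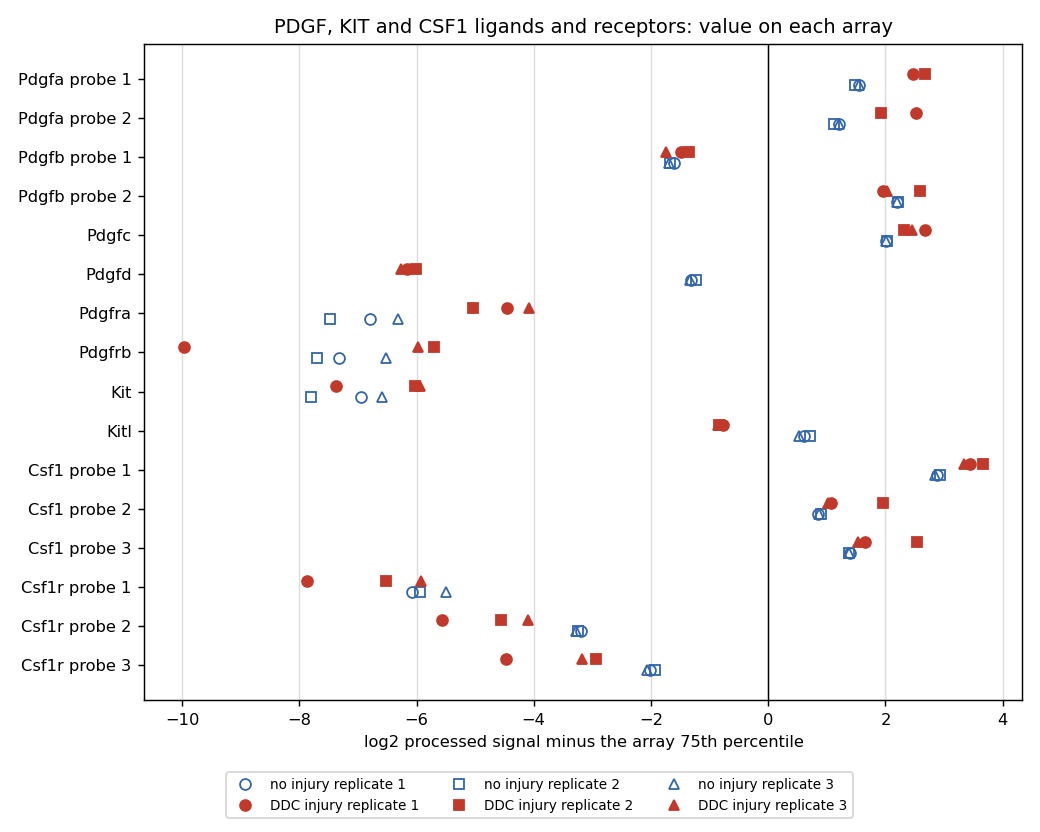
Value of each of the 16 probes on each of 6 arrays (horizontal axis, log2 processed signal minus the array 75th percentile; filled red, DDC injury; open blue, no injury; 1 symbol per replicate). The Pdgfd points of DDC injury lie between -6.27 and -6.01 and those of no injury between -1.33 and -1.23, while the Pdgfrb points of DDC injury spread from -9.96 to -5.70.

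Pdgfd had the largest difference of the 16 probes. PDGF-D is a ligand of PDGFRβ, made as a latent dimer. Its probe (A_52_P264790) read -6.16, -6.01 and -6.27 on the DDC injury arrays and -1.32, -1.23 and -1.33 on the no-injury arrays. Every DDC injury array was thus low, at -4.99 to -4.73 from the no-injury mean, and the spread within each group was small beside the gap. The fitted difference was -4.87 ± 0.13 (SE, limma adjusted p = 0.00107), a 29.2-fold lower signal. The probe was still well above background on all 6 arrays, with a processed signal of 20.4 to 31.7 intensity units in DDC injury. It passed in all 19 alternatives, and the smallest difference among them was -3.03, with normexp background correction.

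Pdgfa, whose product binds PDGFRα, moved the other way. Its first probe (A_55_P2007470) read 2.46 and 2.68 in DDC injury and 1.56, 1.49 and 1.55 without injury. Its second probe (A_55_P2125588) read 2.52 and 1.93 against 1.20, 1.13 and 1.20. Both readable DDC injury arrays were above every no-injury array on both probes. The spots of DDC injury replicate 3 were marked as non-uniform on both probes and were left out. The difference was 1.05 ± 0.15 (adjusted p = 0.022) on the first probe and 1.06 ± 0.26 (adjusted p = 0.064) on the second. With the marked spots kept, DDC injury replicate 3 read 2.02 and 1.78, also above every no-injury array, and the first probe no longer passed (0.87, adjusted p = 0.0543). The call was lost in 4 of 15 alternatives. Beside the marked spots, these were no filter on dim probes, leaving out no-injury replicate 2 (1.02) and averaging all no-injury arrays.

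Pdgfb, whose product binds both PDGF receptors, did not pass on either probe. The first (A_55_P1974441) read -1.49, -1.35 and -1.74 in DDC injury and -1.62, -1.68 and -1.70 without injury, and the groups overlapped. The difference was 0.14 ± 0.16 (adjusted p = 0.545). The second (A_55_P2047310) read 1.95, 2.59 and 2.03 against 2.21, 2.21 and 2.20, with DDC injury replicate 2 above and the other two below the no-injury arrays. Its difference was -0.02 ± 0.24 (adjusted p = 0.959), and its sign turned to 0.10 without DDC injury replicate 1.

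Pdgfc, a latent ligand that signals mainly through PDGFRα, read 2.67, 2.32 and 2.46 in DDC injury and 2.01, 2.02 and 2.00 without injury (A_52_P376360). All DDC injury arrays were above all no-injury arrays and lay 0.31 to 0.65 above the no-injury mean. The difference of 0.47 ± 0.15 did not pass (adjusted p = 0.078). Without DDC injury replicate 2 it was 0.55 and passed (adjusted p = 0.0418).

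**Figure D2:**
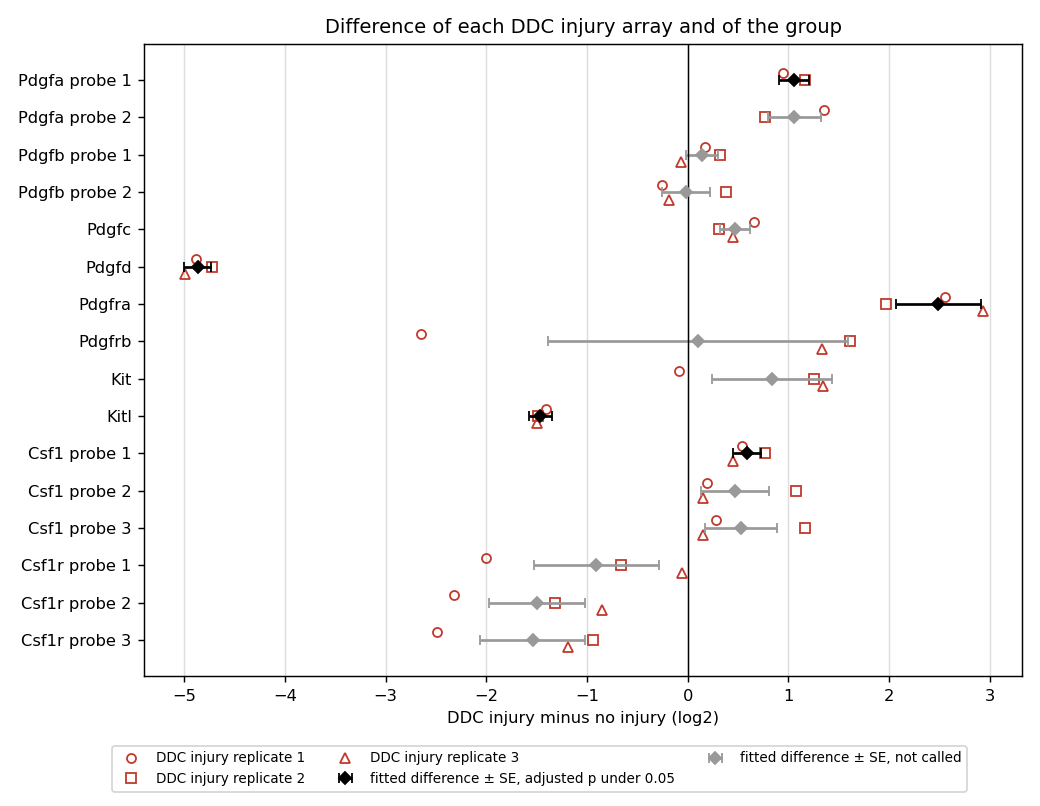
Difference of each DDC injury array from the no-injury mean (open red symbols) and the fitted group difference with its SE (diamonds; black, adjusted p under 0.05; grey, not called), in log2 units, for each of the 16 probes. The symbols of Pdgfd and Kitl lie close together, whereas DDC injury replicate 1 stands at -2.65 for Pdgfrb beside 1.61 and 1.34 on the other arrays.

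Among the PDGF receptors, Pdgfra rose. PDGFRα is the receptor of mesenchymal progenitors and fibroblasts and binds all PDGF dimers other than PDGF-DD. Its probe (A_51_P345649) was printed 10 times per array, and the means of these spots were -4.46, -5.04 and -4.08 in DDC injury and -6.79, -7.47 and -6.31 without injury. Each DDC injury array was above each no-injury array. All 10 spots were well above background on each DDC injury array, but 7, 4 and 10 of 10 were on no-injury replicates 1, 2 and 3, so the no-injury level was near the limit of the array. The difference was 2.49 ± 0.42 (adjusted p = 0.019). It was 1.06 with normexp background correction and 1.45 in the values of the authors' deposited table, and passed in both. The call was lost in 4 of 18 alternatives. These were leaving out DDC injury replicate 3 (2.26, adjusted p = 0.0578) and scan as a random block (2.49, adjusted p = 0.0513). The others, which leave 1 no-injury sample, were leaving out no-injury replicate 2 (2.02) and averaging all no-injury arrays.

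Pdgfrb, the receptor of PDGF-B and PDGF-D that marks pericytes and stellate cells, was dim in every sample. Its probe (A_55_P1957249) read -9.96, -5.70 and -5.97 in DDC injury and -7.32, -7.69 and -6.53 without injury. It was well above background on 2 of 3 arrays in each group, and DDC injury replicate 1 was the lowest of all. The difference was 0.10 ± 1.49 (adjusted p = 0.967). Without DDC injury replicate 1 it was 1.47 and passed (adjusted p = 0.0341), so this library decides the value, and the sign turned without DDC injury replicate 2 (-0.66), without replicate 3 (-0.52) and with scan as a random block (-0.18).

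The level of mesenchymal markers was read beside the receptors. In RNA of whole cultures, fewer cells of a type and less RNA per cell cannot be told apart. Of 20 genes of stellate cells, pericytes and fibroblasts, 11 were tested and 1 was called, beside 30.8% called in either direction over all genes. It was Notch3, a pericyte and smooth muscle receptor, which rose from -2.54, -2.59 and -2.56 to -0.02, 0.58 and 0.14 (2.80 ± 0.22, adjusted p = 0.0036). The summed linear level of the list, in units of the array 75th percentile, was 1.33 to 2.53 in DDC injury and 0.783 to 1.03 without injury. Without Notch3, its largest term, the sums overlapped (0.342 to 1.43 and 0.610 to 0.858). Acta2, Tagln, Ngfr, Col1a1, Dcn, Thy1, Notch3 and Postn, 8 of the 20 genes, were well above background on all 6 arrays, and Des, Rgs5, Reln, Hand2, Abcc9 and Kcnj8 on none. Over all 20 genes, the 6 never well above background among them, the median was 0.92 below the no-injury mean on DDC injury replicate 1. It was 0.44 and 0.52 above that mean on replicates 2 and 3. The median fitted difference over the 11 tested genes was -0.41. Col3a1, a fibrillar collagen, read -8.54, -3.64 and -1.79 in DDC injury and -3.86, -5.02 and -3.04 without injury, low on the same array as Pdgfrb. The part of these cells in the Pdgfra and Pdgfrb values was not tested.

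Kitl fell. Stem cell factor, its product, is the only known ligand of KIT and is made by stromal and epithelial cells. Its probe (A_55_P2001494) read -0.76, -0.84 and -0.86 in DDC injury and 0.61, 0.72 and 0.53 without injury. The groups lay well apart, and the DDC injury arrays were within 0.09 of each other. The difference was -1.47 ± 0.11 (adjusted p = 0.004), a 2.76-fold lower signal. It kept its direction in all 19 alternatives (-1.49 to -1.27). The call was lost in 2 of them, which leave 1 no-injury sample: without no-injury replicate 2 (-1.39) and with all no-injury arrays averaged.

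Some markers of other liver cell types also fell in this comparison, beside Pdgfd and Kitl. Over all genes, each read from its brightest probe, 14.6% were lower and 16.2% higher. Of 5 tested mesothelial genes 3 were lower, with a median of -3.30, and Upk1b, a uroplakin, fell from 1.72, 1.66 and 1.70 to -6.32, -5.97 and -5.83 (-7.73 ± 0.18, adjusted p = 0.00107). Of 9 tested cholangiocyte genes 4 were lower, with a median of -0.69, and Prom1, a membrane protein of bile duct and progenitor cells, fell from 1.89, 2.09 and 1.77 to -6.70, -6.46 and -7.02 (-8.69 ± 0.22, adjusted p = 0.00107). Of 10 tested hepatocyte genes 5 were lower and 2 higher, with a median of -2.30. Alb, the albumin gene, fell from -0.57, -0.58 and -0.61 to -7.23, -5.52 and -7.41 (-6.14 ± 0.65, adjusted p = 0.00658). The 2 higher genes were Afp (2.86 ± 0.26, adjusted p = 0.0048) and Apob (0.67 ± 0.12, adjusted p = 0.022). Among the genes of these lists that did not pass were Krt19 (0.37 ± 0.21), Hnf4a (-0.09 ± 0.20) and Msln (0.15 ± 0.15). The summed level of mesothelial genes was 22.4 to 27.9 in DDC injury and 25.9 to 28.2 without injury. Without Msln, its largest term, it was 0.0449 to 0.183 against 4.2 to 4.3. For cholangiocyte genes the sums were 72.8 to 86.6 against 89.1 to 93.7, and 45.3 to 49.8 against 52.1 to 54.6 without Spp1. For hepatocyte genes they were 38.3 to 47.5 against 46.1 to 51.2, and 11.8 to 18.8 against 29.9 to 34.1 without Apob. The part of these cells in the Pdgfd and Kitl values was not tested.

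Kit was dim, and its probe (A_66_P128434) did not pass. It read -7.37, -6.03 and -5.94 in DDC injury and -6.94, -7.80 and -6.60 without injury. Replicates 2 and 3 of DDC injury were above every no-injury array and replicate 1 was among them. The difference was 0.84 ± 0.59 (adjusted p = 0.355). The mast cell and blood progenitor list stands for the cells in which KIT is best known. Its summed level was 0.107 to 0.253 in DDC injury and 0.149 to 0.207 without injury. Of its 6 tested genes 2 were higher and 0 lower, with a median of -0.09, beside 16.2% higher over all genes. Mcpt4, a mast cell protease gene, rose by 1.60 ± 0.23 (adjusted p = 0.013) and Gata2, a blood progenitor factor well above background on 1 no-injury array, by 2.58 ± 0.48 (adjusted p = 0.023). The other tested genes, Hdc (-1.73 ± 1.58), Tpsb2 (-0.54 ± 0.35), Cd34 (-0.53 ± 1.04) and Ptprc (0.36 ± 0.90), did not pass. Mcpt4, Tpsb2, Cd34 and Ptprc were well above background on all 6 arrays, and Fcer1a, Ms4a2 and Gata1 on none. The part of these cells in the Kit values was not tested.

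Csf1, the growth factor of macrophages, had higher values on all 3 probes and passed on 1. The probe printed 10 times (A_51_P195506) read 3.44, 3.66 and 3.35 in DDC injury and 2.88, 2.92 and 2.85 without injury. The second (A_55_P2017914) read 1.07, 1.95 and 1.02 against 0.86, 0.89 and 0.87. The third (A_55_P2169669) read 1.66, 2.55 and 1.53 against 1.39, 1.38 and 1.38. All DDC injury arrays were above all no-injury arrays on every Csf1 probe, and DDC injury replicate 2 was the highest on each. The differences were 0.59 ± 0.14 (adjusted p = 0.043), 0.47 ± 0.34 (adjusted p = 0.359) and 0.53 ± 0.35 (adjusted p = 0.329). The call of the first probe was lost in 8 of 19 alternatives, among them quantile scaling (0.45, adjusted p = 0.0528), the authors' values (0.38, adjusted p = 0.073), leaving out DDC injury replicate 3 (adjusted p = 0.0737) and leaving out no-injury replicate 2 (adjusted p = 0.25).

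The CSF1 receptor, which marks macrophages and their precursors, had lower values on all 3 probes without passing. The first (A_52_P602091) read -7.86, -6.53 and -5.91 in DDC injury and -6.08, -5.94 and -5.49 without injury. The second (A_55_P2025073) read -5.56, -4.56 and -4.09 against -3.19, -3.25 and -3.28. The third (A_55_P2025078) read -4.47, -2.93 and -3.17 against -2.02, -1.93 and -2.07. On the second and the third probe every DDC injury array was below every no-injury array, and DDC injury replicate 1 was the lowest on all 3. The differences were -0.91 ± 0.62 (adjusted p = 0.340), -1.50 ± 0.47 (adjusted p = 0.081) and -1.54 ± 0.52 (adjusted p = 0.096). Without DDC injury replicate 1 the second and the third probe passed at -1.09 and -1.07 (adjusted p = 0.0252 and 0.0139), and both passed in the authors' values (-0.98 and -1.29).

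Macrophage genes were read in the same way. Of 19 macrophage and Kupffer cell genes with a probe, 13 were tested, 1 was higher and 1 lower, beside 16.2% higher and 14.6% lower over all genes. The mannose receptor gene Mrc1 rose from -6.67, -6.96 and -7.00 to -3.74, -2.62 and -3.71 (3.54 ± 0.41, adjusted p = 0.00782), and the integrin gene Itgam fell from 0.31, 0.67 and 0.26 to -2.68, -1.87 and -2.23 (-2.73 ± 0.29, adjusted p = 0.00674). The summed level of the list was 3.13 to 6.73 in DDC injury and 7.74 to 8.28 without injury. Its largest term was Cd14, a receptor for bacterial lipopolysaccharide, and without Cd14 the sums were 0.414 to 1.51 against 1.91 to 2.20. Of the genes left, Itgam was the highest on every no-injury array, so this gap rests largely on its fall. Sums without Itgam were not taken. Adgre1, Marco, Cd14, Itgam, Ptprc, Mpeg1, Aif1, Mrc1 and Fcer1g were well above background on all 6 arrays, and Clec4f, Spi1, Timd4 and Cd5l on none. Over all 19 genes with a probe, those never well above background among them, the median was 1.39 and 0.02 below the no-injury mean on DDC injury replicates 1 and 2. It was 0.65 above that mean on replicate 3. The median fitted difference over the 13 tested genes was -0.67. Tyrobp, an adaptor of myeloid receptors, read -9.80, -5.52 and -4.10 in DDC injury and -3.90, -3.84 and -3.76 without injury, lowest on the array on which Csf1r was lowest, and did not pass (adjusted p = 0.345). Their part in the Csf1r values was not tested.

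**Figure D3:**
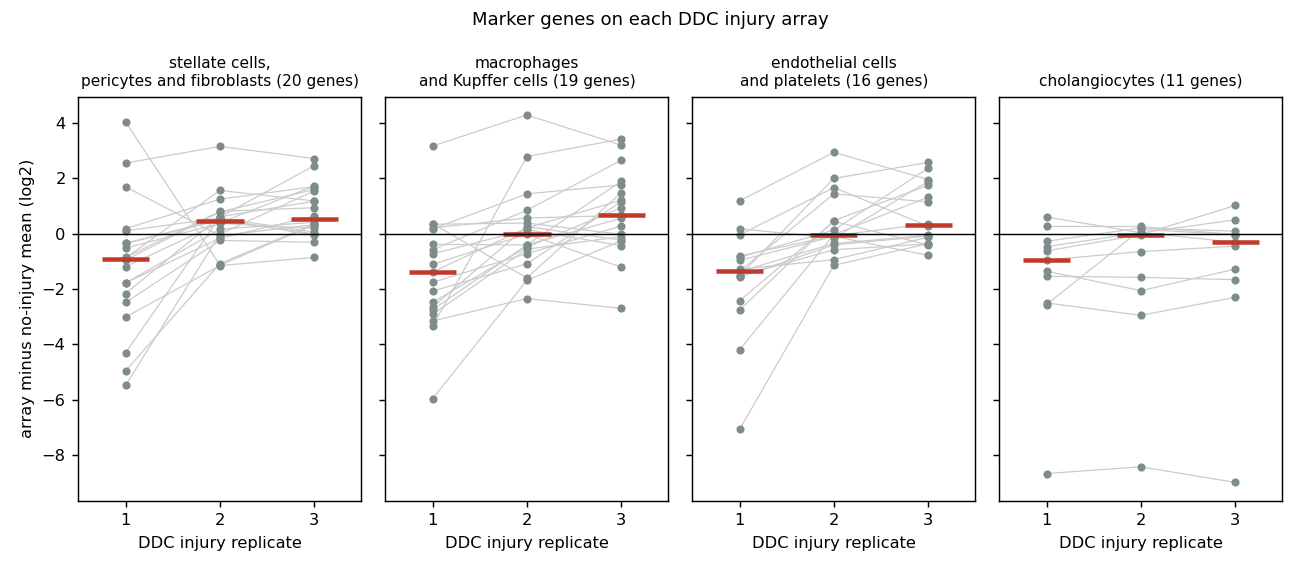
Difference of each DDC injury array from the no-injury mean (vertical axis, log2) for every marker gene with a probe in 4 lists, whether or not it was tested. Each line is a gene and each red bar the list's median on that array. DDC injury replicate 1 has the lowest median in each list, -0.92 for stellate cells, pericytes and fibroblasts, -1.39 for macrophages, -1.37 for endothelial cells and platelets and -0.95 for cholangiocytes.

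DDC injury replicate 1 was the lowest of the DDC injury arrays for 10 of 11 tested stellate cell, pericyte and fibroblast genes. The same held for 10 of 13 macrophage genes, 12 of 13 endothelial and platelet genes, 7 of 10 hepatocyte genes and 4 of 5 mesothelial genes. It held for 3 of 6 mast cell and progenitor genes and 3 of 9 cholangiocyte genes. The share was 43.3% over all probes tested, which were not matched for brightness, and 6 of 14 over member probes with 3 readings. DDC injury replicate 1 had a higher 75th percentile (2271 intensity units) than replicates 2 and 3 (1441 and 1572), so the same dim signal reads lower on it. The part of this in the counts was not tested. Among the DDC injury arrays the member probes had a median range of 0.78, beside 0.50 over all probes tested. Among the no-injury arrays the median range was 0.087 for member probes and 0.13 for all.

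The extracellular partners of these genes were taken as a list of 15: the related receptor Flt3 and its ligand, the second CSF1R ligand Il34, PDGF-binding proteins, and proteases that cut the ligands or release receptor ectodomains. Of 13 tested, 1 was higher and 2 were lower, with a median difference of -0.12, beside 16.2% higher and 14.6% lower (30.8% in either direction) and a median of -0.07 over 15619 genes, each read from its brightest probe. Read in that way, 3 of the 10 ligand and receptor genes were higher and 2 lower. Pcsk6, a furin-type convertase, rose from -1.28, -1.32 and -1.30 to 1.94, 0.24 and 1.82, a difference of 2.64 ± 0.59 (adjusted p = 0.036), and lost the call without DDC injury replicate 3 (2.40, adjusted p = 0.103). Plat, the tissue plasminogen activator that can activate PDGF-C, fell from 0.02, 0.14 and 0.13 to -1.33 and -1.16, with no reading on DDC injury replicate 1 (-1.35 ± 0.14, adjusted p = 0.012). St14, the gene of matriptase, a protease that can process PDGF-D, fell from -4.48, -4.65 and -4.38 to -6.81, -6.31 and -5.55 (-1.68 ± 0.41, adjusted p = 0.044). The St14 difference shrank to -0.40 with normexp (adjusted p = 0.431), to -0.72 in the authors' values (adjusted p = 0.0548), and did not pass without DDC injury replicate 2 (adjusted p = 0.103). Without no-injury replicate 2 none of these 3 partners passed.

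Il34, the other ligand of the CSF1 receptor, read 0.64, -0.63 and 0.52 in DDC injury and -1.11, -1.27 and -1.14 without injury. All DDC injury arrays were higher, and replicate 2, which was the highest for Csf1, was the lowest for Il34. The difference of 1.38 ± 0.45 did not pass (adjusted p = 0.087), and without that replicate it was 1.78 and passed (adjusted p = 0.00649). Flt3l, the ligand of FLT3, was also lowest on replicate 2, with -0.24, -1.95 and -0.22 against -2.08, -2.23 and -2.10 (1.36 ± 0.62, adjusted p = 0.177; 1.94 without DDC injury replicate 2, adjusted p = 0.00535). Its receptor gene Flt3 read -6.47, -5.73 and -5.82 against -5.52, -5.24 and -5.12 (-0.72 ± 0.27, adjusted p = 0.118).

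The remaining partners did not pass. Furin, which cuts PDGF-A and PDGF-B precursors, differed by -0.47 ± 0.17. Pdgfrl, a PDGF receptor-like gene, differed by -0.67 ± 0.28, and the co-receptor Nrp1 by -0.49 ± 0.32. The sheddases Adam10 and Adam17 differed by 0.50 ± 0.16 and 0.28 ± 0.68, Lrp1 by -0.12 ± 0.14 and the PDGF-binding matrix protein Sparc by -0.06 ± 0.24. The Lrp1 sign turned under quantile scaling (0.06) and the Sparc sign under normexp (0.08). Adam17 was 0.91 and passed without DDC injury replicate 1 (adjusted p = 0.0273), and was -0.12 without DDC injury replicate 2. Plau and Pcsk5 were well above background on 1 and 0 arrays and were not tested.

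Downstream of the receptors, 40 genes of proximal signalling were all tested, with 3 higher, 3 lower and a median difference of 0.12. Over all genes 16.2% were higher and 14.6% lower, with a median of -0.07. Pik3cd, a catalytic PI3K subunit, rose from -4.42, -4.47 and -4.49 to -2.64, -2.47 and -2.47 (1.94 ± 0.12, adjusted p = 0.0023). Stat5a, a transcription factor activated by cytokine and growth factor receptors, differed by -0.93 ± 0.14 (adjusted p = 0.014) and the MAP kinase kinase Map2k2 by 0.67 ± 0.14 (adjusted p = 0.032), and both lost the call without DDC injury replicate 3, as Map2k2 did without DDC injury replicate 2.

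Of 26 tested negative regulators, 5 were higher and 2 lower, with a median of -0.15, beside 16.2% higher and 14.6% lower over all genes. Socs1, an inhibitor of JAK kinases, rose from -5.01, -5.03 and -4.95 to -3.26, -2.58 and -3.04 (2.04 ± 0.23, adjusted p = 0.00786). Spred1 and Spred2, inhibitors of the RAS to RAF step, rose by 0.67 ± 0.12 and 0.71 ± 0.13 (adjusted p = 0.022 for each), and lost the call without DDC injury replicate 3 (adjusted p = 0.0706 and 0.0679). The receptor phosphatase gene Ptprj fell from 2.07, 2.01 and 1.96 to 0.57, 1.02 and 0.67 on its brightest probe (-1.26 ± 0.18, adjusted p = 0.012), and 1 of its other probes did not pass (-0.15 ± 0.19).

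Of 25 tested genes known to respond to growth factors, 8 were higher and 1 lower, with a median of 0.78, beside 16.2% and 14.6% over all genes. The ETS factor Etv4 rose from -1.72, -1.68 and -1.67 to 1.66, 1.45 and 1.57 (3.25 ± 0.12, adjusted p = 0.0011). The AP-1 subunit Fosl1 rose from -2.58, -2.59 and -2.62 to 0.85, 0.30 and 0.57 (3.17 ± 0.20, adjusted p = 0.00243), and Timp1, an inhibitor of matrix metalloproteinases, by 2.46 ± 0.12 (adjusted p = 0.00165). Jun, another AP-1 subunit, fell from -0.16, -0.25 and -0.28 to -2.10, -2.38 and -2.13 (-1.97 ± 0.14, adjusted p = 0.00307). These genes respond to many receptors, EGF and HGF receptors among them, and the medium held both ligands in all samples. VEGF and bFGF were added to cultures named P6, P7 and P9, so the medium may have differed between the groups. The part of these additions in the values was not tested. Over the 4 lists, 17 of 104 tested genes were higher and 8 lower, beside 16.2% and 14.6% over all genes. These counts were 2 and 0 without no-injury replicate 2 (Etv4 and Timp1; limma, with 13 and 6 at an unadjusted p under 0.05), 8 and 4 without DDC injury replicate 3, and 33 and 15 without DDC injury replicate 2.

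**Figure D4:**
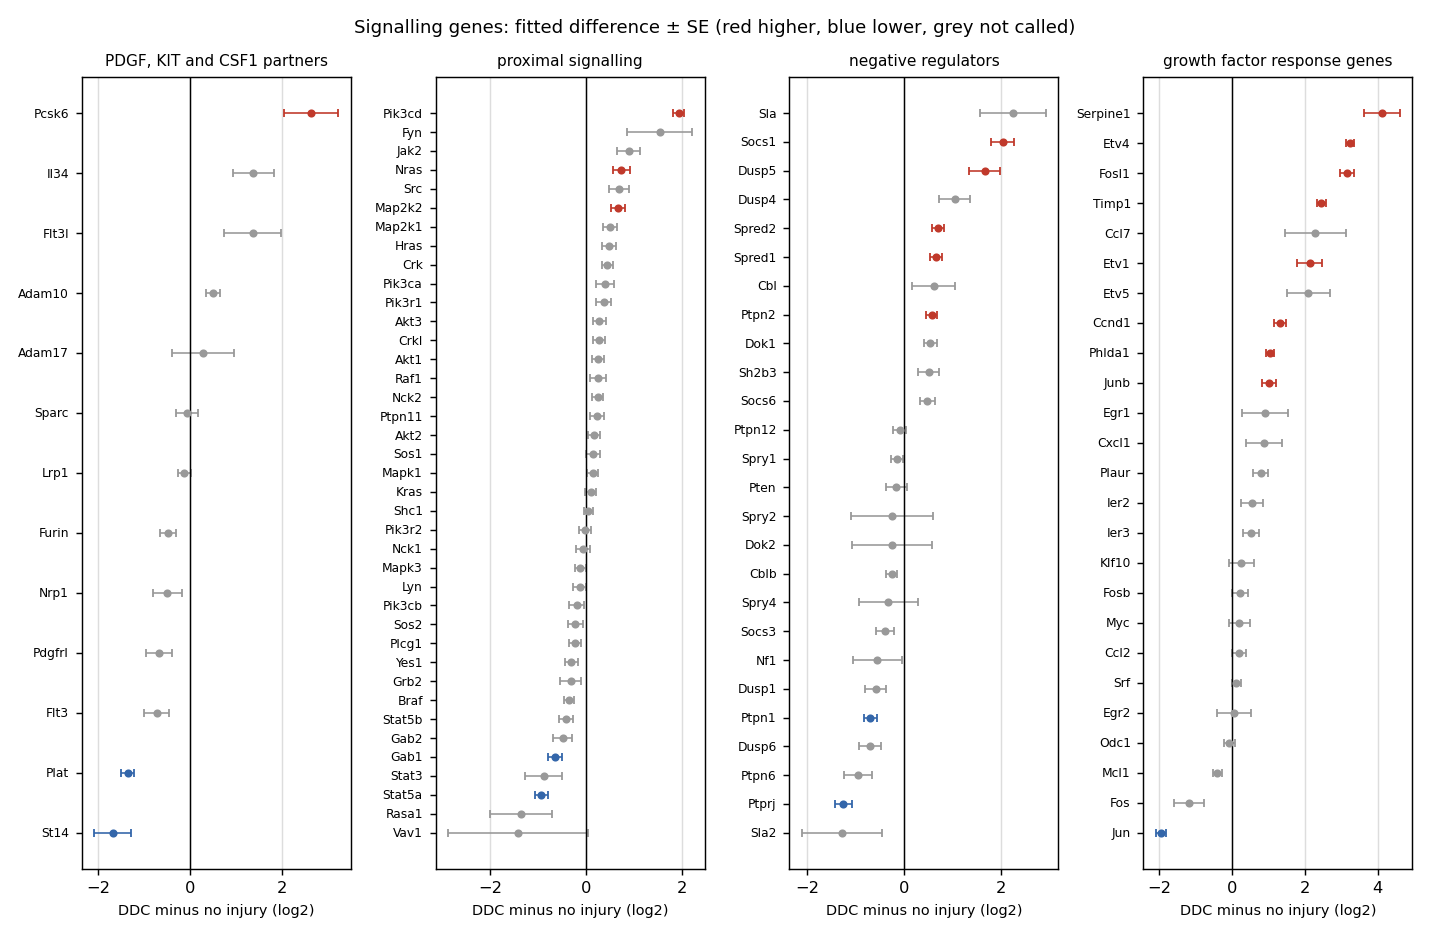
Fitted difference, DDC injury minus no injury (horizontal axis, log2), with its SE for tested genes of 4 signalling lists, ordered by size (red, higher; blue, lower; grey, not called at adjusted p under 0.05). Of the growth factor response genes 8 are higher and 1 is lower, and of the partners 1 is higher and 2 are lower.

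Pdgfra and Kit are next to each other on mouse chromosome 5, followed by Kdr, a VEGF receptor gene, and Pdgfrb and Csf1r are next to each other on chromosome 18, in the order of the RefSeq gene table of GRCm38.p6. On chromosome 5, Pdgfra passed while Kit and Kdr (-0.83 ± 0.39, adjusted p = 0.187) did not. The flanking genes Chic2 (0.11 ± 0.14) and Srd5a3 (-0.41 ± 0.11, adjusted p = 0.051) did not pass either. On chromosome 18, neither receptor gene passed, nor did the nearby genes Cdx1 (-0.23 ± 0.44) and Hmgxb3 (0.09 ± 0.13). Differences between neighbours were not tested.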

How the data were processed

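Processed signals in intensity units were deposited per array, and per the file headers they came from Feature Extraction 11.0.1.1, background-subtracted and detrended. The authors' deposited value table holds log2 values that share their quantiles. The submitters' processing notes name limma without a version, and other steps are not given in the sources used here.

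Spots marked as non-uniform or population outliers were left out, repeated spots averaged, and log2 processed signals centred on each array's 75th percentile. Probes were tested if 3 or more of the 6 arrays read them well above background and each group had at least 2 values, using limma 3.58.1 in R 4.3.3 (two-sided, Benjamini-Hochberg over 27428 probes, threshold 0.05). The script was tested on simulated data. Genes in lists were read from their brightest probe. No-injury replicates 1 and 3 were merged after a chi-square test that allows for the noise being estimated from 10 spots; without that allowance p = 0.0332.

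Probes were named through transcript identifiers in RefSeq's table (GRCm38.p6). The arrays' own annotation is on mm9, so no gene coordinates are given; 12195 probes had no symbol there. The text names every member probe, every partner gene, up to 4 called genes with the smallest adjusted p per other signalling list, Cd63, neighbours of the receptor genes and marker genes, except 1 gene that is counted but not reported here or plotted; single marker genes given with values were chosen after their values were seen. Members and lists were chosen with earlier results of these data known. The number of arrays limits precision. Alternatives were other scaling, background correction, filters, sample counting, blocks, leaving out arrays, an intensity trend, 1 probe per gene, and, chosen after seeing the data, keeping marked spots. The second scan day alone is the same fit as leaving out DDC injury replicate 1, and counts of alternatives hold both. The files held no mean spot signal, so normexp used the median spot signal with an offset of 50.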

Additional observations from a re-analysis of the deposited data

How the results depend on the processing

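Pdgfd kept its direction and call in all 19 alternatives, and no member call reversed. The counts of calls moved more. Over all probes, 4243 were higher and 3788 lower. After averaging all no-injury arrays the counts were 279 and 133, with scan as a random block 2770 and 2277, and with 1 probe per gene 2761 and 2463. Lower probes numbered 2494 with no filter and 5933 with 6 separate arrays. Leaving out each replicate in turn gave 262 to 5595 higher and 126 to 4776 lower.

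Of the member probes, 3 were higher and 2 lower. Higher probes numbered 1 with no filter, 1 with only probes well above background on all 6 arrays (10 member probes tested), 1 with the scan block, and 5 with 6 separate arrays or an intensity trend. Lower probes numbered 4 with the authors' values, 6 separate arrays or the second scan day alone, which is the fit without DDC injury replicate 1. With no-injury arrays averaged, limma called 0 higher and 1 lower (2 and 2 at an unadjusted p under 0.05). Leaving out replicates gave 0 to 3 higher and 1 to 4 lower.

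Of the 104 signalling genes tested, 17 were higher and 8 lower. The counts were 11 and 5 with no filter, 31 and 16 with 6 separate arrays, 10 and 5 with the scan block, and 27 higher and 12 lower with an intensity trend. With no-injury arrays averaged they were 2 and 0 by limma (15 and 6 at an unadjusted p under 0.05). Leaving out replicates gave 2 to 33 higher and 0 to 15 lower. The cause of these shifts was not tested, apart from the fewer probes or samples that some settings hold.

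The deviations of same-numbered samples from their group means had correlations of 0.122, 0.0358 and 0.0831 over 27037 probes. These were not set against differently numbered samples, so they do not decide whether the numbers pair the samples. The fit of 6 arrays with the replicate number as a block called 4360 probes higher and 4200 lower, 3 and 2 of the member probes, and 21 and 11 signalling genes.

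Signal over background limits Pdgfrb, Kit, the first Csf1r probe, the no-injury level of Pdgfra and the DDC injury level of Pdgfd. The fold sizes of these genes depend on the background correction. The Pdgfd difference moved from -4.87 to -3.03 with normexp.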
